A study of Arabidopsis thaliana with 16 samples.

Results

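Among the 691 Arabidopsis thaliana genes that had an array probe of their own, 15 gave a bright signal in both the wild type and the ppi2 mutant with medians that differed by less than 2-fold. They were chosen from the measured values. After quantile normalization of all samples, the median over the 8 WT samples and the median over the 8 ppi2 samples both had to reach an intensity of 1, and their ratio had to lie between 0.5 and 2. Of the 692 probes with a single listed gene, 62 reached that level in WT, 88 in ppi2 and 40 in both. The ratio lay within the bounds for 18 of these 40, below them for 6 and above them for 16. The rule left out 3 of the 18 by name, together with any gene named as a pentatricopeptide repeat protein, which left the 15. Because the rule used the ppi2 against WT contrast, that contrast is described here for the 15 genes and gives no test of them.

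The series held total RNA of 16 samples of the ecotype Wassilevskija, 8 labelled WT and 8 labelled as the ppi2 mutant, which is impaired in bringing precursor proteins into chloroplasts. No tissue, age or growth condition is labelled, and nothing tells whether samples came from separate plants, so a p-value here covers the spread of these samples alone and that spread may be technical. Each sample correlated best with the one numbered next to it, 1 with 2, 3 with 4 and so on, and each such pair was averaged on the log2 scale into 1 replicate, which gave 4 pairs per genotype (n = 4 throughout). The level of a pair given below is the geometric mean of its 2 quantile-normalized intensities.

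Most chloroplast proteins are encoded in the nucleus, made in the cytosol and carried into the organelle by translocons in its outer and inner envelope. Toc159, the receptor that ppi2 lacks, binds many precursors of photosynthetic proteins, and ppi2 seedlings are albino. A transcript with a similar level in both genotypes can serve as a point of reference in such a comparison, and genes of basic cell functions are often assumed to behave in this way. On an array a level is the signal of 1 probe, so levels are not read here as amounts of one transcript against another. The limit of 1 was the same for every probe, and bright and abundant here describe that signal. In RNA of whole samples, fewer cells of a type and less RNA per cell cannot be told apart.

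As deposited, intensities ended at 100 in every sample, and sample medians were 0.0976 to 0.212 for WT and 0.168 to 0.269 for ppi2. The WT pairs were not alike. Pearson's r across all probes was 0.898 for WT pairs 1 with 2, 0.885 for 3 with 4, and 0.759 to 0.812 for WT pairs taken across these subsets. Among ppi2 pairs it was 0.943 to 0.961. Between WT pairs 1 and 2 and the ppi2 pairs it was 0.761 to 0.806, much as across the WT subsets. Between WT pairs 3 and 4 and the ppi2 pairs it was 0.625 to 0.667. By this measure WT pairs 1 and 2 were about as far from the other WT pairs as from ppi2. The samples of WT pairs 3 and 4 also had the lowest medians. None of the 19 genes fixed as markers of leaf, root, seed or flower had a probe of its own, so the tissue was not checked.

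The 15 genes spanned median intensities of 1.08 to 46.7 in WT and 1.06 to 81.5 in ppi2. Their ratio of ppi2 to WT medians ran from 0.524 to 1.74, above 1 in 8 genes and below 1 in 7. Just inside the lower ratio bound lay AT3G26580 (0.524) and AT2G39360 (0.626), and just outside it AT5G50350 (0.414) and AT4G39690 (0.362). At the upper bound the last genes inside were AT4G22830 (1.74) and AT2G37510 (1.66). The first outside were AT1G15410 (2.05) and RAP74 (AT4G12610, 2.05), a subunit of the general transcription factor TFIIF. At the level limit AT2G39360 stayed in with a ppi2 median of 1.06, and AT5G05380 (PRA1.B3, a prenylated RAB acceptor) stayed out at 0.951. All 15 genes had a signal above 0 in each of the 16 samples.

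**Figure D1:**
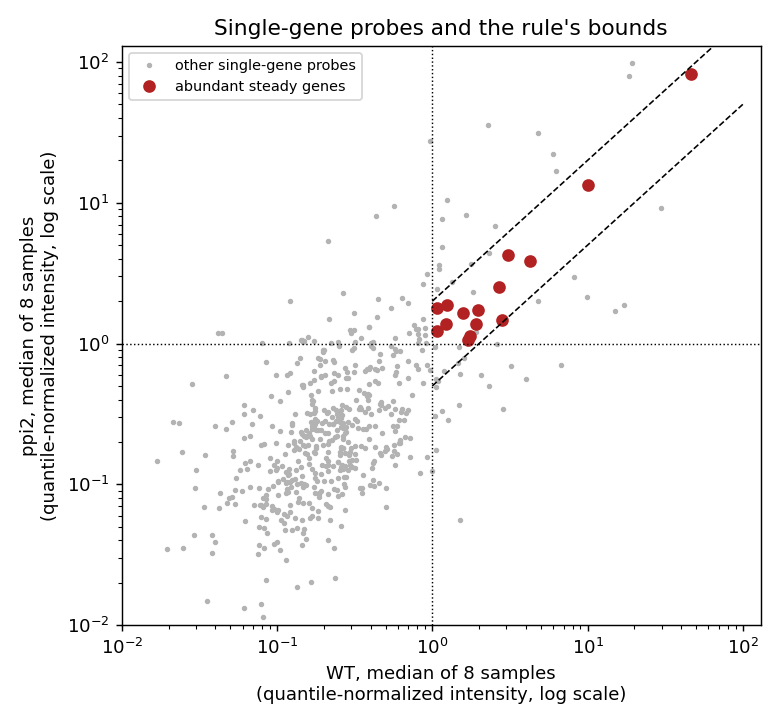
Median quantile-normalized intensity over the 8 WT samples (horizontal) and the 8 ppi2 samples (vertical) for single-gene probes with both medians above 0, on log axes. Dotted lines mark an intensity of 1 and dashed lines ratios of 0.5 and 2; the 15 abundant steady genes (red) lie in the corner that these bounds define, which also holds the 3 genes that the rule left out by name.

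How far the label of a steady transcript held depended on whether one looked at medians or at the replicates. In 2 genes, AT4G19900 and AT3G15900, all 16 combinations of a WT pair with a ppi2 pair differed by no more than 2-fold. That was so in 18.2% of all probes and in 10.4% of the 222 probes that reached the level limit in both genotypes. The 18.2% includes 244 probes at or under the floor, the lowest intensity kept, in every sample. Such probes met this by construction, so the share of all probes is not a like comparison. The share of the 15 genes was 13.3%. The rule had placed their medians within 2-fold, so nothing is read from that share. AT4G19900, known as a member of a glycosyltransferase family, had levels of 2.84, 1.91, 1.79 and 2.77 in WT pairs 1 to 4 and of 2.54, 2.37, 2.18 and 3.46 in ppi2 pairs 1 to 4. The ranges of the genotypes overlapped along most of their length, and the log2 difference, ppi2 minus WT, was 0.19 ± 0.22 (SE; limma 95% interval -0.33 to 0.71). The 2 samples behind WT pair 2 were far apart, at 1.22 and 2.97. AT3G15900 read 0.944, 1.35, 1.25 and 1.24 in WT and 1.40, 1.41, 1.54 and 0.787 in ppi2, a difference of 0.07 ± 0.24 (95% interval -0.50 to 0.63). Pair 4 was the lowest in ppi2 and pair 1 in WT.

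AT3G09080, which encodes a protein with WD40 repeats, had the smallest difference between the genotype means, -0.01 ± 0.36 on the log2 scale (95% interval -0.87 to 0.86). That closeness was one of means. Its WT pairs stood at 7.88, 5.03, 3.16 and 2.71, and its ppi2 pairs at 3.86, 5.82, 4.01 and 3.70. WT pairs 1 and 2 were thus the higher and WT pairs 3 and 4 the lower, with 3 of the 4 ppi2 pairs in between. AT1G49850, a RING-type protein of the kind often found in ubiquitin ligases, ran the other way in WT. Its WT levels were 1.29, 1.66, 2.23 and 2.74, its ppi2 levels 1.57, 1.91, 1.31 and 1.88, and its log2 difference -0.20 ± 0.26.

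Several of the genes have known or predicted ties to the plastid. AT4G22830 encodes a protein related to the Ycf49 proteins of cyanobacteria and algae, and AT3G44020 a protein named for the thylakoid lumen. AT4G22830 had levels of 97.9, 77.2, 30.3 and 24.3 in WT and 96.5, 97.9, 69.0 and 62.1 in ppi2. In both genotypes pairs 1 and 2 were higher than pairs 3 and 4. Its deposited intensity was at the ceiling of 100 in 3 WT samples and 3 ppi2 samples, all of them from pairs 1 and 2, so that a difference among the brightest samples could not be read. The highest pair was 4.03-fold above the lowest in WT and 1.58-fold in ppi2. Whether 100 is a limit of measurement or a result of scaling is not stated. If it is a limit, both gaps may be too small, and which genotype had the wider gap is not known.

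AT3G44020 read 2.08, 2.85, 1.27 and 1.24 in WT and 1.14, 1.24, 0.989 and 1.49 in ppi2. Its ppi2 level was 0.959 times that of WT pairs 3 and 4 and 0.495 times that of WT pairs 1 and 2. AT2G38550, of the FAX family, whose founding member exports fatty acids from plastids, showed the same arrangement. Its levels were 2.52, 2.24, 1.44 and 1.41 in WT and 1.71, 1.21, 1.54 and 1.11 in ppi2, or 0.962 times WT pairs 3 and 4 and 0.578 times WT pairs 1 and 2. The log2 differences against all WT pairs were -0.54 ± 0.30 for AT3G44020 and -0.42 ± 0.25 for AT2G38550, and the ranges of the genotypes overlapped in both. AT2G22890, a relative of the plastid desaturase FAD4, read 1.07, 0.876, 0.488 and 1.34 in WT and 1.03, 1.32, 1.22 and 2.0 in ppi2. The low WT pair 3 joined samples of 1.58 and 0.150, the widest gap between partners in the 15 genes.

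CCL (AT3G26740, CCR-like) is known as a light-responsive gene whose short-lived transcript follows the circadian clock. In ppi2 it was among the tightest of the 15, at 13.4, 14.5, 13.9 and 11.3 (SD 0.16 on the log2 scale, n = 4). In WT it read 13.2, 17.0, 6.56 and 5.94 (SD 0.75). The ppi2 mean was therefore 0.883 times WT pairs 1 and 2, and 2.12 times WT pairs 3 and 4. Against all WT pairs its log2 difference was 0.45 ± 0.36 (95% interval -0.41 to 1.32). The labels give no time of harvest.

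AT1G06730, a sugar kinase of the pfkB family, met the rule through its medians, 3.09 in WT and 4.24 in ppi2, but it was not steady. WT pairs 1 and 2 stood at 9.61 and 6.57 and WT pairs 3 and 4 at 0.310 and 0.119, so that the highest WT pair was 80.9-fold above the lowest. The WT median fell in the gap between 0.310 and 6.57, where no WT pair lay. The ppi2 pairs read 6.10, 5.22, 3.50 and 1.70, lower than WT pairs 1 and 2 and higher than WT pairs 3 and 4. In ppi2, too, pair 4 was the lowest, 3.58-fold below the highest. The 2 samples of a WT pair lay close, for instance 10.2 and 9.04 in pair 1 and 0.102 and 0.138 in pair 4. Its log2 difference of 1.59 ± 1.55 had a 95% interval of -2.11 to 5.28, which spans both directions. Against WT pairs 1 and 2 the ppi2 level was 0.467-fold, and against WT pairs 3 and 4 it was 19.3-fold.

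**Figure D2:**
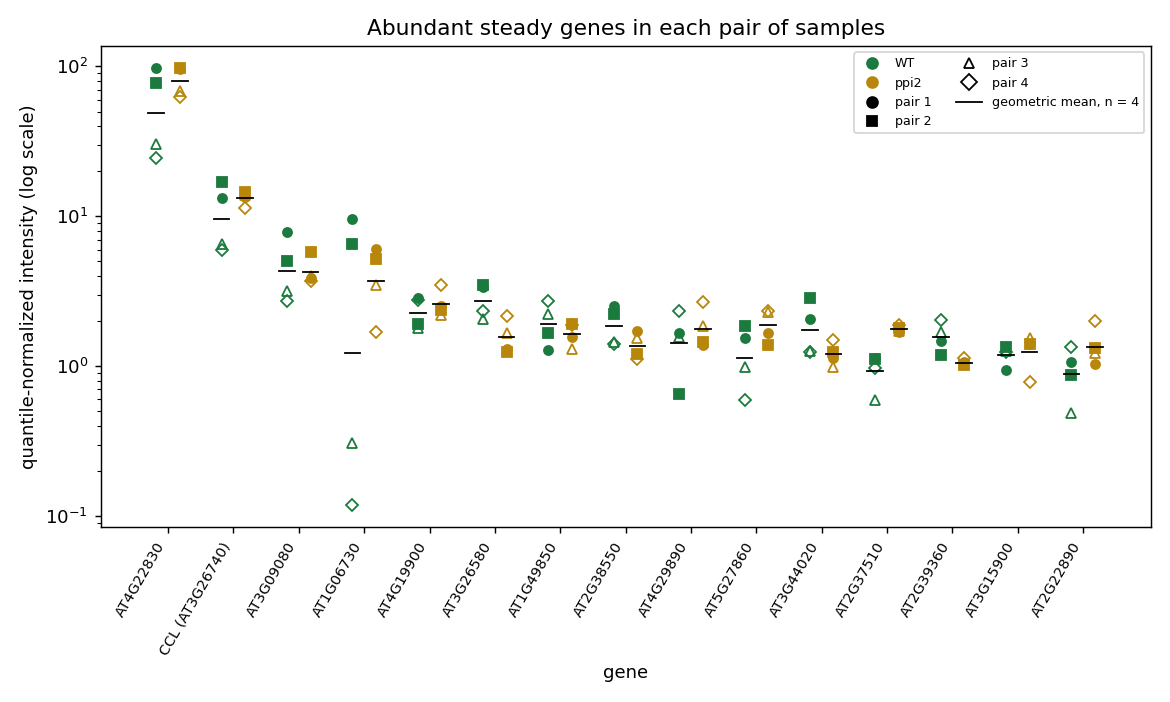
Quantile-normalized intensity (log axis) of the 15 abundant steady genes in each averaged pair of samples, WT in green and ppi2 in ochre, with filled symbols for pairs 1 and 2, open symbols for pairs 3 and 4 and a bar for the geometric mean of 4 pairs. AT1G06730 runs from 0.119 to 9.61 in WT, while the 4 ppi2 pairs of CCL lie between 11.3 and 14.5.

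Among the other genes, AT2G37510 and AT2G39360 were those in which the 4 pairs of one genotype all lay above the 4 of the other. AT2G37510, with an RNA recognition motif, read 1.13, 1.12, 0.597 and 0.980 in WT and 1.70, 1.80, 1.72 and 1.88 in ppi2. Its ppi2 pairs were the tightest of all 15 genes, with an SD of 0.07, and its log2 difference was 0.94 ± 0.21, or 1.92-fold. AT2G39360, a receptor-like kinase, read 1.48, 1.19, 1.70 and 2.03 in WT and 1.06, 1.01, 1.03 and 1.13 in ppi2. Here ppi2 was the lower genotype, by a log2 difference of -0.57 ± 0.16 or 1.48-fold, again with an SD of 0.07 in ppi2. In the values as deposited the difference of AT2G39360 had the opposite sign, 0.26. In both genes the pairs of the genotypes were separate although the medians differed by less than 2-fold.

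The remaining genes lay between these cases. AT3G26580, with tetratricopeptide repeats, was the lowest in ratio and read 3.37, 3.49, 2.05 and 2.33 in WT against 1.31, 1.25, 1.65 and 2.16 in ppi2. Its genotypes met where ppi2 pair 4 passed WT pair 3. AT5G27860 read 1.55, 1.86, 0.989 and 0.598 in WT and 1.68, 1.39, 2.30 and 2.34 in ppi2, so that WT pairs 1 and 2 lay within the ppi2 range and WT pairs 3 and 4 below it. AT4G29890, which resembles choline monooxygenases, read 1.67, 0.656, 1.57 and 2.35 in WT and 1.38, 1.46, 1.84 and 2.70 in ppi2. Pair 4 was the highest in both genotypes, and WT pair 2 alone lay below all ppi2 pairs.

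In the limma fit over all 3439 probes with Benjamini-Hochberg adjustment at 0.05, 984 probes differed between the genotypes, or 28.6%. Of the 15 genes 2 passed, AT2G37510 higher in ppi2 (14.2% of all probes) and AT2G39360 lower (14.4%). AT2G39360 did not pass without WT pair 1, without WT pair 3 or without any one of the ppi2 pairs. Nor did it pass in the values as deposited, after centring on sample medians or with zeros set to missing. It also did not pass with probes at the floor left out or with the shared pair number as a block. Separate ranges of the 4 pairs occurred in 32.2% of all probes and in the same 2 genes. Among the 222 probes that reached the level limit in both genotypes, 56.8% had separate ranges and 53.6% passed the test. The rule bounded this contrast, so nothing is read from these counts, and no p-value is given for a member. What the intervals add is how closely a small difference was measured. The 95% interval lay wholly within 2-fold in 5 of the 15 genes, AT4G19900, AT3G15900, AT3G09080, AT1G49850 and AT2G39360. That was so in 22.5% of all probes and in 17.1% of the 222 probes that reached the level limit. The rule had placed the medians of the 15 genes within 2-fold, so nothing is read from their share. For the other 10 genes a difference of more than 2-fold was within the interval, although their medians were closer than that. The median log2 difference was 0.19 over the 15 genes and 0.21 over the 222 probes that reached the level limit, so it was not particular to the 15 genes. Over all probes, those at the floor included, it was 0.00.

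**Figure D3:**
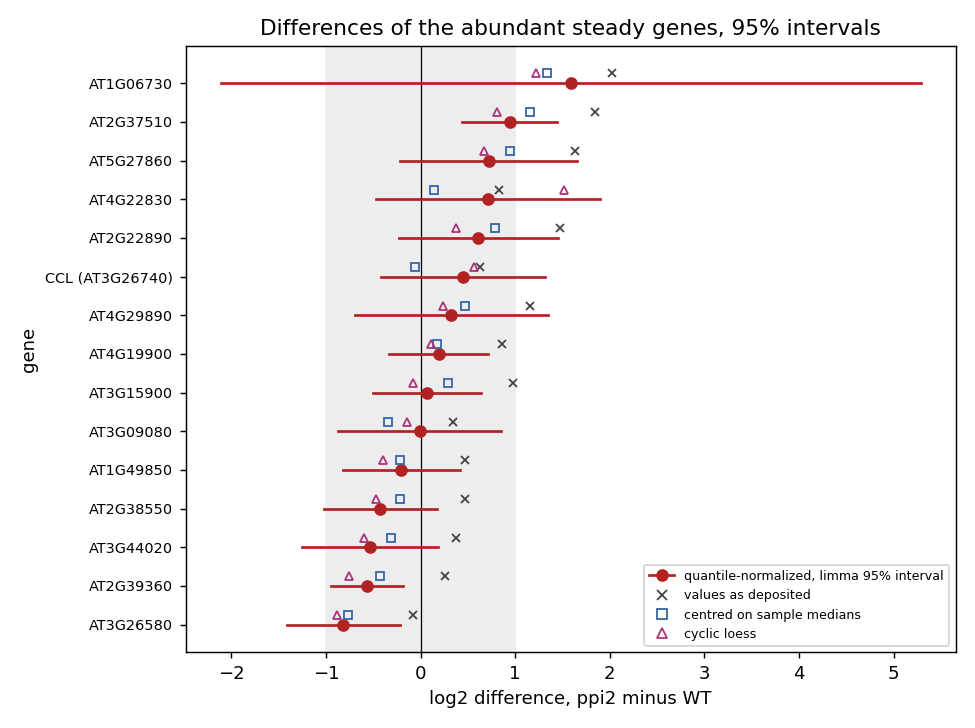
Log2 difference, ppi2 minus WT, of the 15 abundant steady genes (red point, limma estimate with 95% interval, n = 4 pairs per genotype), with the same difference in the values as deposited, after centring on sample medians and after cyclic loess. The grey band marks differences of up to 2-fold; 5 intervals lie inside it, and the deposited values lie to the right of the red points in all 15 genes.

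The spread within a genotype was not part of the rule. The SD over the 4 pairs was larger in WT than in ppi2 in 14 of the 15 genes, the exception being AT3G15900. On the log2 scale the median SD of the 15 genes was 0.58 for WT pairs and 0.30 for ppi2 pairs. The same order held in 79.3% of all probes and in 77.0% of the 222 probes that reached the level limit in both genotypes, so the larger spread in WT was widespread on the array. The highest WT pair was more than 2-fold above the lowest in 9 of the 15 genes, or 60%. That was so in 67.2% of all probes and in 52.7% of the 222 probes that reached the level limit. In ppi2 that was so in 1 gene, AT1G06730 (23.2% of all probes and 15.8% of the 222). Samples within a pair differed little by comparison. Taking each gene's median gap between partners, the median over the genes was 0.18 in WT and 0.08 in ppi2. It was 0.28 and 0.13 over all probes, and 0.15 and 0.09 over the 222 probes that reached the level limit. The gap of the 15 genes in WT was thus not small for their brightness.

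**Figure D4:**
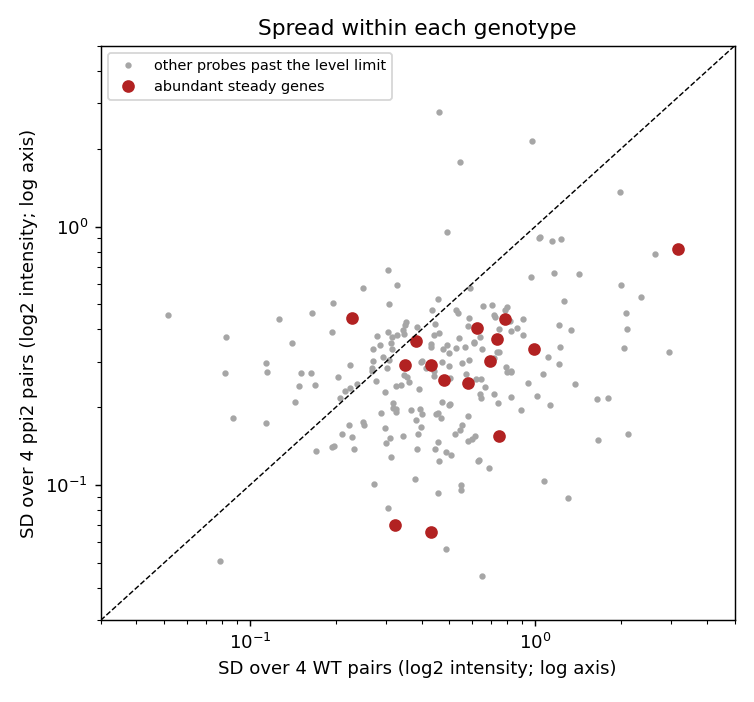
SD over the 4 WT pairs (horizontal) against SD over the 4 ppi2 pairs (vertical), in log2 intensity on log axes, for the probes that reached an intensity of 1 in both genotypes, with the 15 abundant steady genes in red. Points below the dashed line vary more in WT; 14 of the 15 genes lie there, and AT1G06730 is the red point farthest to the right.

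Most of the genes were divided in WT along the split of its pairs. In 9 of the 15 genes WT pairs 1 and 2 both lay above WT pairs 3 and 4: AT4G22830, CCL, AT3G09080, AT1G06730, AT3G26580, AT2G38550, AT5G27860, AT3G44020 and AT2G37510. The opposite was seen in 2 genes, AT1G49850 and AT2G39360. The other 4, AT4G19900, AT4G29890, AT2G22890 and AT3G15900, showed neither order, among them AT4G29890 with a WT SD of 0.78 and AT2G22890 with 0.62. Over all probes the shares were 21.0% and 27.7%, and among the 222 bright probes 33.8% and 27.9%. Among the 22 bright single-gene probes outside the ratio bounds they were 50% and 18.2%, so the split was not particular to the 15 genes. These counts of 9 and 2 were the same after centring on sample medians and after cyclic loess. In the values as deposited, where WT pairs 3 and 4 had the lowest sample medians, they were 13 and 0, and the shares over all probes moved to 49.1% and 4.36%. The labels give no batch for these pairs, and the part of the samples' overall brightness in the split was not tested.

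Set against the WT subsets separately, 8 genes stayed within 2-fold of both: AT4G19900, AT3G15900, AT3G09080, AT1G49850, AT2G38550, AT4G29890, AT2G39360 and AT2G22890. The other 7 left the bounds against one subset or, for AT1G06730, against both. Against WT pairs 3 and 4, ppi2 was 2.94-fold for AT4G22830, 2.45-fold for AT5G27860, 2.32-fold for AT2G37510 and 2.12-fold for CCL. For AT4G22830, 3 ppi2 samples were at the ceiling, so its value may be too low if 100 is a limit of measurement. Against WT pairs 1 and 2 it was 0.454-fold for AT3G26580 and 0.495-fold for AT3G44020. When the rule was applied with WT pairs 3 and 4 left out it chose 24 genes, 12 of the 15 among them. With WT pairs 1 and 2 left out it chose 15, of which 10 were shared.

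Scaling between samples also decided who belonged. Over 14 changes of scaling, floor, zeros or left-out pairs, AT4G19900, AT3G09080, AT1G49850 and AT2G38550 met the rule every time. The changes of floor and of zeros could not remove a gene. The rule does not use the floor, and none of the 15 genes had a zero. AT2G37510, AT3G26580 and AT4G22830 met it in 8 of the 14. In the values as deposited 12 genes met the rule, 10 of them shared with the 15. The median log2 difference of all probes was then 0.30 and that of the 15 genes 0.83, with 14 of the 15 higher in ppi2, where 9 of the 15 had been higher after quantile normalization. The number of these genes that stood higher in ppi2 thus moved with the way the samples were scaled.

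Genes used as references in quantitative PCR were hardly covered by probes of their own. Of 19 such genes 1 had one, AT2G28390, and it was not among the 15, since its median intensity was 0.305 in WT and 0.132 in ppi2. Its levels were 0.193, 0.516, 0.461 and 0.239 in WT and 0.152, 0.114, 0.132 and 0.161 in ppi2. All ppi2 pairs lay below all WT pairs, and AT2G28390 fell 2.34-fold (log2 difference -1.22 ± 0.35, 95% interval -2.06 to -0.39, limma with Benjamini-Hochberg adjusted p = 0.0407 over all probes). It did not pass the test without WT pair 2 (limma adjusted p = 0.0658) or 3 (0.0927), nor without any one of the ppi2 pairs (0.0755 to 0.104), while its difference kept its sign. In the values as deposited it was -0.61 (limma adjusted p = 0.400).

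The 22 single-gene probes that also reached the level limit but fell outside the ratio bounds were split 6 below and 16 above. Bright probes of other kinds met the bounds about as often. Of the probes that reached the level limit in both genotypes, the ratio was within bounds in 45% of those with 1 gene, 50% of those with several genes and 45.8% of those without a listed gene, 103 of 222 in all.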

How the data were processed

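The authors deposited 1 intensity per probe and sample for 3439 probes. No source used here states how spots were quantified, background-corrected or scaled. The deposited intensities appear linear, are never negative and end at 100, with 13.0% to 16.6% exact zeros per sample. Precision is limited by the number of arrays. Genes came from an older platform annotation (1 gene for 692 probes, several for 870, none listed for 1877). Of the 692, 690 matched the RefSeq table of TAIR10.1, used for names only. Where a locus has no symbol there, its family is given as general background.

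Columns were quantile-normalized, floored at the 5th percentile of positive values (0.0338) and log2-transformed. Consecutive samples were averaged, since all 8 WT and all 8 ppi2 samples correlated best with their partner (0.902 to 0.979 across probes). limma 3.58.1 in R 4.3.3 (lmFit, eBayes) tested ppi2 minus WT, with Benjamini-Hochberg adjustment over all probes. The numbers that the genotypes share were not used as pairing. Deviations of same-numbered pairs correlated at 0.38, 0.31, 0.03 and 0.33 for pairs 1 to 4, and pair 3 was not above the required 0.1.

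The members and lists were chosen with earlier results of these data known. Genes were named by brightness, smallness of difference, spread and nearness to the bounds, which took in all 15. The planned grouping by product names and the sequence features were not carried out, as no such tables were used here. Pentatricopeptide genes were found by symbol or synonym. Alternatives covered scaling, floor, zeros, dim probes, what counts as a replicate, the bounds and left-out pairs.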

Additional observations from a re-analysis of the deposited data

Results flagged for a closer look

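Of 54 groups of 4 pairs, 2 held a pair set well apart from the remaining 3. Chance alone marks about 1 in 20 groups. AT3G15900 had a log2 level of -0.35 in ppi2 pair 4, against 0.48 to 0.62 in the other ppi2 pairs. AT4G32060, which missed the level limit with a ppi2 median of 0.945, was at -1.45 in ppi2 pair 1, against -0.08 to 0.18 in the others.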

How the results depend on the processing

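The number of genes that met the rule was 15 and lay between 13 and 21 when 1 pair was left out. It was 24 without WT pairs 3 and 4 (an alternative chosen after seeing the data), 48 with a level limit of 0.5, 5 with a limit of 2 and 9 with ratios between 1/1.5 and 1.5. Of the 15 genes, 2 passed the test; 1 did after centring on sample medians, with zeros set to missing, and with probes at the floor left out. The count was 4 after cyclic loess, 5 with every sample as its own replicate, 6 without WT pairs 1 and 2, and 1 to 2 when 1 pair was left out. With the pair number shared by the genotypes as a replicate block it was 1, AT2G37510, and 846 probes passed in all. These counts are descriptions, since the rule used the same contrast. AT2G39360 was not among those that passed under the block, and its difference turned to 0.26 in the values as deposited. Over all probes 984 passed, 488 higher and 496 lower. With every sample as its own replicate 1616 did, 787 and 829. In the values as deposited 235 were lower, and 73.4% of calls were higher in place of 49.6%. A floor at the 25th percentile moved the log2 difference of AT1G06730 from 1.59 to 1.56. If 100 is a limit of measurement, it limits what AT4G22830 can show.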
